A study of Mus musculus with 12 samples.

Results

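Blasts recovered from the spleen (SP) of leukemic mice were compared between 2 genotypes, wild type (WT) and STAT3β-deficient (Δβ), with 3 samples each, to see which genes differ when the β isoform of STAT3 is missing. Every gene with a mean of at least 10 normalized counts over these 6 samples was included, which left 11469 of the 24454 genes in the deposited table. A normalized count is the number of reads on a gene divided by a size factor of its sample. Of the remaining genes, 4907 had at least 1 read in SP and 8078 had none. At the limit, Rpl38 was kept with a mean of 10.009 and Gstm7 was left out with a mean of 9.998.

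The blasts came from fetal liver cells of WT or STAT3β-deficient mice that a retrovirus had made to express MLL-AF9, a fusion oncogene of acute myeloid leukemia (AML), together with the fluorescent protein Venus. The cells were injected intravenously into NSG mice (NOD.Cg-Prkdc scid Il2rg tm1Wjl/SzJ), young adult males that lack mature T, B and NK cells but keep their own myeloid cells, and Venus+ cells were sorted from diseased animals. All 6 SP samples therefore carried MLL-AF9 and Venus and grew in hosts not altered in Stat3, and the genotypes differed in the germline Stat3 locus of the donor cells. Blasts from the bone marrow (BM), with 3 samples of each genotype, serve below as a reference. No label ties a sample to an animal, a transformed line or an age, so p-values measure only the spread between these samples. The labels do not tell how far that spread is technical, although Δβ 3 differed from the other SP samples in sex-linked genes, as given below.

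STAT3 carries signals of cytokine receptors such as those of IL-6 and G-CSF to the nucleus. Its α isoform ends in a transactivation domain, whereas the β isoform arises from a splice acceptor further downstream in the same exon and ends in a short tail of its own. Interferons (IFN) also signal through Janus kinases, and the genes they induce often carry GAS elements or interferon-stimulated response elements (ISRE) in their promoters. In myeloid cells, STAT3 is known for its part in the response to G-CSF and for restraining inflammatory gene expression, and Socs3 is a classical feedback target of it.

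The splice choice that separates the isoforms is shown because Δβ cells were made to lack the shorter form. In GENCODE release M21 on GRCm38, exon 23 of the longer form spans chr11:100889478-100889590 on the minus strand, and that of the shorter form chr11:100889478-100889540, so that 50 bases are skipped. Both junctions are printed on the strand of the gene with the 50 bases of the longer form in capitals.
Stat3, longer exon: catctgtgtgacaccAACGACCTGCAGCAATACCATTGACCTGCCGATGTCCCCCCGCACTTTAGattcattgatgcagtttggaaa
Stat3, shorter exon: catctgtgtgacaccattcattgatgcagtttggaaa
The deposited values are sums per gene and do not separate these forms. Stat3 (Entrez gene 20848) ranged from 2978 to 4430 normalized counts in WT and from 2674 to 3236 in Δβ. Both groups overlapped, and the log2 difference, Δβ minus WT, was -0.32 ± 0.17 (SE, n = 3 per group, limma adjusted p = 0.501), so the gene total gives no check of the genotype labels.

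Between 9274983 and 13859727 reads per SP sample fell on genes. The WT samples did not stand together. Pearson's r across genes was 0.893 to 0.963 between WT samples and 0.962 to 0.967 between Δβ samples, and on the first principal component, which held 53.5% of the variance, WT 3 lay at 29.4 beside the Δβ samples at 18, 37.5 and 29.1, whereas WT 1 and WT 2 lay at -77.5 and -36.5. The second component, with 17.3% of the variance, set WT 3 apart at 47.5. The ribosomal RNA precursor Rn45s took 2.48% and 2.41% of the reads of WT 2 and WT 3 and 0.224% to 0.725% elsewhere in SP, lower in every Δβ sample than in any WT sample. WT 1 was the sample furthest from the Δβ samples, with r of 0.893 to 0.915 to them. Results that rest on WT 3 are therefore given with and without it. Leaving out WT 3 keeps WT 1 in the comparison, and list medians without WT 1 are not given here. The medians without WT 3 thus show the dependence on that sample only.

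**Figure D1:**
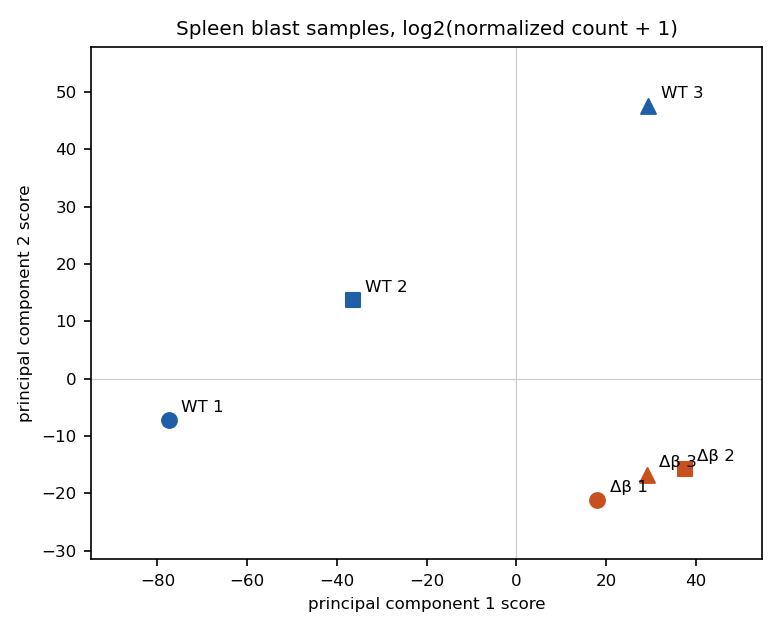
Scores of the 6 SP samples on the first (horizontal) and second (vertical) principal component of log2(normalized count + 1) over 11469 genes, with WT in blue and Δβ in orange. WT 3 lies at 29.4 and 47.5, away from WT 1 and WT 2, which lie at -77.5 and -36.5 on the first component.

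The blast label was checked against markers. Hoxa9 and Meis1, homeobox genes that MLL-AF9 keeps active, were present in all 6 samples, Hoxa9 at 798 to 3410 and Meis1 at 516 to 1599 normalized counts. Both were lowest in WT 1, and members of their list did not all behave alike. Hoxa10 had 88.9 in WT 1 and 344 to 988 elsewhere in SP, and Eya1 had 3.42 in WT 1 and 493 to 769 elsewhere. Hoxa7 and Mef2c were not lowest in WT 1. Markers of other cells varied: the hemoglobin genes Hba-a1 and Hbb-b1 had no read and the red pulp macrophage gene Spic reached 3.42, whereas Adgre1 and Hmox1 of the same macrophage list, which other myeloid cells also express, reached 3880.5 and 3925. The 14 T and NK cell markers each stayed at or below 47.3. Among 16 erythroid markers, 7 were at 0 in all 6 samples, and their summed level was 47.0 to 66.7. By contrast, all 12 neutrophil markers passed the filter on low values and summed to 207103, 334201 and 138705 in WT and to 99839, 92322 and 114688 in Δβ.

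Only 2 genes passed the threshold of limma on log2(normalized count + 1), an adjusted p under 0.05 after Benjamini-Hochberg adjustment over all 11469 genes, and both rose in Δβ blasts. That is 0.0174% of the genes, and 0% fell. At an unadjusted p under 0.05 there were 512 higher and 746 lower genes. The read-count test of edgeR also called 2 genes, both higher, whereas DESeq2 called 120 higher (1.05%) and 219 lower (1.91%). Counted without any model, 905 genes were higher in every Δβ sample than in any WT sample (7.89%) and 1081 were lower (9.43%). The median log2 difference of all genes was -0.02, and 47.9% of them were on the higher side.

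The counts depended on WT 3. Without it limma called 334 higher genes (2.91%) and 1163 lower genes (10.1%), whereas leaving out any other single sample left 1 call. Without WT 3, 2851 genes were higher without overlap (24.9%) and 3486 lower (30.4%). Without Δβ 3 these shares were 11.6% and 13%, and with 5 samples groups fail to overlap more often than with 6.

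Cwc22 (Entrez gene 80744, chr2:77881159-77946356), which encodes a splicing factor that loads the exon junction complex, had 439.9, 438 and 443 normalized counts in WT and 6424, 6387 and 6892 in Δβ. The groups were far apart and the spread within each was small. The gene rose by a log2 difference of 3.89 ± 0.10 (SE, n = 3 per group, limma adjusted p = 6.28e-05). Ube2l6 (Entrez gene 56791, chr2:84798828-84810003), the conjugating enzyme for the interferon-induced modifier ISG15, had 69.5, 82.7 and 62.9 in WT and 391, 377 and 329.9 in Δβ. It rose by 2.34 ± 0.18 (limma adjusted p = 0.0345), again without overlap. Cwc22 was called whichever sample was left out. Ube2l6 was called without WT 3 but not without any other single sample (limma adjusted p = 0.113 to 0.352) and had a limma adjusted p of 0.0673 in the fit of all 12 samples, which treats the organs as independent.

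Cwc22 is also known for copies that differ in number between inbred mouse strains. Of 9 tested genes with known copy or sequence differences between strains, 6 were higher in Δβ without overlap (66.7% beside 7.89% of all genes). None was lower without overlap, and 2 of the 6, Gbp2b and Oas1b, also belong to interferon lists below. Nnt, a mitochondrial transhydrogenase that is truncated in C57BL/6J mice, had 533, 637 and 909 in WT and 2018, 1691 and 1709 in Δβ (1.41 ± 0.21, limma adjusted p = 0.21). Wdfy1, an endosomal adaptor, had 613, 599 and 641 in WT and 925, 973 and 1123 in Δβ. The labels name no strain for the donor cells, so a strain difference and the Stat3 genotype cannot be told apart for these genes. The same limit holds for other genes, among them Ube2l6, which lies on the same chromosome as Cwc22, and Rnaset2b below.

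Rnaset2b, a lysosomal ribonuclease gene with a near-identical neighbour, showed the smallest p of the lower genes. It had 74.1, 47.7 and 67.0 normalized counts in WT, and at most 2 reads per sample in Δβ. Set against a floor of 3 reads per sample, the Δβ mean was at least 21.2-fold lower. The fitted adjusted p was 0.16 in limma and 2.83e-06 in DESeq2.

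Among the other genes with the smallest p on the higher side were 2 chitinase-like genes, which are neighbours on chromosome 1. Chit1, the chitinase of macrophages, had 22.8, 7.42 and 12.2 in WT and 115, 207 and 369 in Δβ. Chil1, a secreted chitin-binding protein of neutrophil granules, had 238, 313 and 131 in WT and 1119.9, 1160.5 and 2287 in Δβ. Neither group overlapped, with log2 differences of 3.91 ± 0.55 and 2.74 ± 0.40 (limma adjusted p = 0.195 and 0.21). The calcium regulators Ryr2, a calcium release channel, and Camk2d, a calmodulin-dependent kinase, were close to absent in WT. Ryr2 had 4.56, 2.12 and 4.06 in WT and 45.7, 175 and 189 in Δβ, and Camk2d had 2.28, 5.30 and 5.07 in WT and 491, 79.5 and 132 in Δβ. Both were high in every Δβ sample, although Camk2d in Δβ 1 far exceeded the others.

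Rapgefl1 (chr11:98836785-98853009), a guanine nucleotide exchange factor, lies on the same chromosome as Stat3 (chr11:100886806-100939594). It had 1.14, 9.54 and 7.10 in WT and 119, 159 and 139.9 in Δβ. Donor DNA around the Stat3 mutation and the mutation itself cannot be told apart here. Mdn1, an ATPase that releases assembly factors from the large ribosomal subunit, had 672, 681 and 671 in WT and 1202, 1430.4 and 1106 in Δβ, a smaller but tight difference of 0.88 ± 0.13. Npm3-ps1, a pseudogene, Erdr1, a pseudoautosomal gene, Msl3l2 and Bin1, a membrane-bending adaptor, completed the 12 higher genes, with log2 differences of 2.98, 2.54, 2.27 and 0.86. Reads of Npm3-ps1 may be shared with its parent gene.

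Tnf and 3 regulators of inflammatory or stress signalling were among the 12 lower genes. Jund, the JunD subunit of the AP-1 transcription factor, had 6347, 7197 and 5090.4 in WT and 1839, 2325 and 1585 in Δβ. Tnf, the inflammatory cytokine, had 699.7, 705 and 463 in WT and 106, 173 and 106 in Δβ, so that the lowest WT sample exceeded the highest Δβ sample. The log2 differences were -1.70 ± 0.20 and -2.28 ± 0.27 (limma adjusted p = 0.195 for both, DESeq2 adjusted p = 4.55e-10 and 5.77e-10). Ikbke, a kinase upstream of IRF3 and NF-kB, had 1087, 964 and 1142 in WT and 436, 332 and 519.9 in Δβ. Jdp2, an AP-1 repressor, had 897, 929 and 755 in WT and 498, 455 and 484 in Δβ.

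The other 7 lower genes were of mixed function. Zeb1, a transcriptional repressor, and Trp53i11, a p53-induced membrane protein, were low in WT already and lower in Δβ, Zeb1 with 47.9, 59.4 and 53.8 in WT and 7.75, 7.84 and 12.8 in Δβ. Mreg, which acts in organelle transport, Sorl1, a sorting receptor, and Itih5, a hyaluronan-binding matrix protein, had log2 differences of -1.27, -1.16 and -0.91. Padi4, the enzyme that citrullinates histones in neutrophils, had 2133, 4229.8 and 2056 in WT and 643, 694 and 816 in Δβ. Wfdc21, a small secreted protein of myeloid cells, differed by -1.96. Within both groups of 12, the limma adjusted p of genes other than Cwc22 and Ube2l6 was 0.160 to 0.215, and DESeq2 called all 24.

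**Figure D2:**
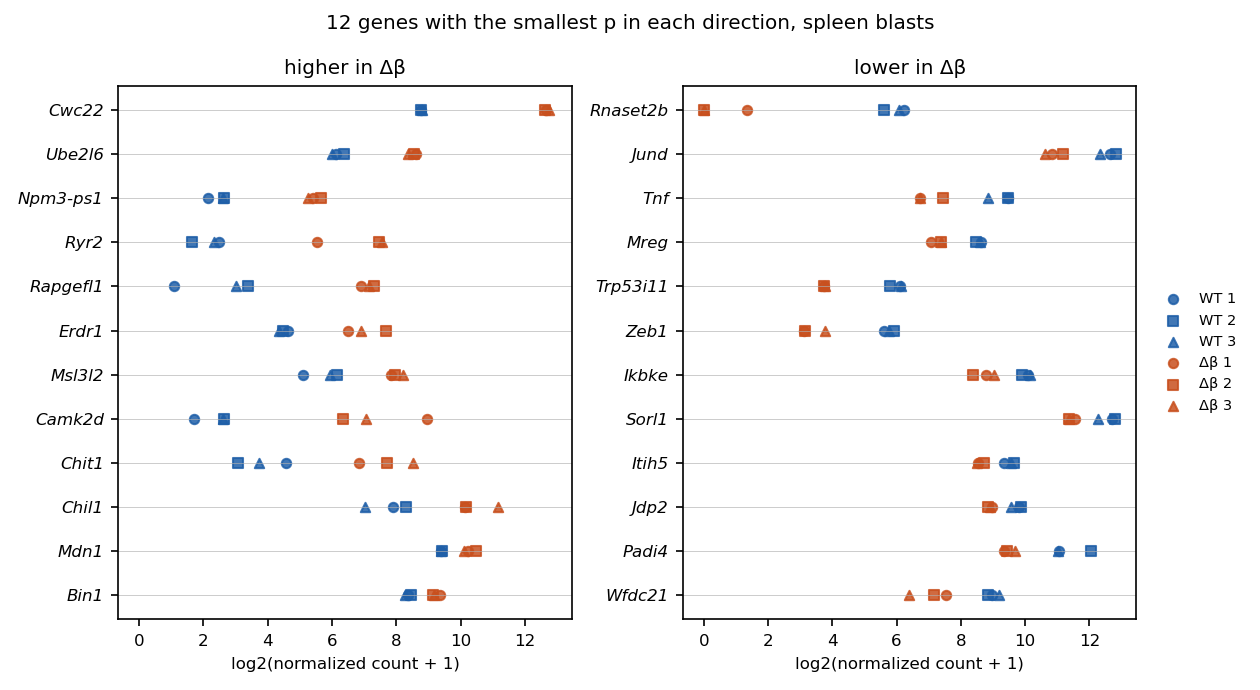
Log2(normalized count + 1) (horizontal) of the 12 genes with the smallest limma p on the higher side (left) and on the lower side (right) whose groups do not overlap. Each symbol is 1 SP sample, WT in blue and Δβ in orange. Cwc22 and Ube2l6 at the top left are the 2 genes past the adjusted threshold.

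Gene lists are described by how many members did not overlap between the groups, by DESeq2 calls and by the median log2 difference, because limma called no member of any list other than Ube2l6 and Cwc22. The guanylate-binding proteins (GBP) and immunity-related GTPases, enzymes that IFN-γ induces to attack vacuoles of intracellular pathogens, showed the largest median. All 14 tested members were on the higher side, 10 without overlap (71.4% beside 7.89% of all genes), some of them by small margins. DESeq2 called 11, beside 1.05% of all genes. Their median log2 difference was 2.03, beside -0.02 for all genes, and 2.25 without WT 3.

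The promoters of this family are shown because all of its tested members lay on the same side. RefSeq promoters (GRCm38.p6, 250 bases before to 50 after the gene start) were found for 10 of the 14 genes. All 10 held the core of an ISRE, that is GAAA, any 2 bases and GAAA, on either strand, compared with 3.81% of the 9271 tested genes with a promoter and 3.99% of all 27025 promoters. The GAS letters TTCNNNGAA, on either strand, were in 5 of the 10 and in 8.21% of the tested genes. Windows around 1 core in each of 5 genes follow on the strand of the gene, with the match in capitals.
Gbp2, chr3:142620589-142620628, plus strand: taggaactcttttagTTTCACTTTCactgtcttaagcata
Gbp5, chr3:142496754-142496793, plus strand: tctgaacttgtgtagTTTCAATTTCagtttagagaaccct
Irgm1, chr11:48871420-48871459, minus strand: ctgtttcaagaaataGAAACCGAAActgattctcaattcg
Irgm2, chr11:58214898-58214937, plus strand: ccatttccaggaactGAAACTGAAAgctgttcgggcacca
Igtp, chr11:58199507-58199546, plus strand: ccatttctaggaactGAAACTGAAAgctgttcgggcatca
The match lies within 165 bases before the gene start in these genes. Irgm2 and Igtp share the letters of the match. These are matches of letters and no measurement of binding. Ube2l6 had no match to either element in its window.

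Gbp2 (Entrez gene 14469, chr3:142620663-142638008) had 20.5, 20.1 and 113 normalized counts in WT and 1974, 2303 and 267 in Δβ. The groups did not overlap, but the Δβ samples differed strongly among themselves, and WT 3 was the highest WT sample. The log2 difference was 4.84 ± 1.01 (SE, n = 3 per group, limma adjusted p = 0.293, DESeq2 adjusted p = 3.86e-06). Gbp5, which promotes inflammasome assembly, had 9.12, 10.6 and 31.5 in WT and 359.6, 269 and 74.7 in Δβ. Gbp4 had 3.42, 2.12 and 5.07 in WT and 96.1, 109 and 20.3 in Δβ. In all 3 genes Δβ 3 was the lowest of the Δβ samples and WT 3 the highest of the WT samples.

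The immunity-related GTPase Irgm1, a regulator of autophagy, had 245, 200.3 and 253 in WT and 754, 888 and 343 in Δβ, and its partner Irgm2 had 173, 165 and 104 in WT and 676, 804 and 266 in Δβ. Gbp3 had 269, 201 and 269.9 in WT and 1563, 1404 and 407 in Δβ. Gbp2b, which strains carry in different forms, had at most 1 read per WT sample and 45.0, 66.1 and 2.14 normalized counts in Δβ, on average at least 11.7-fold higher when 3 reads are set as the floor. Δβ 3 was itself under that floor, so the bound rests on Δβ 1 and Δβ 2, and the margin between Δβ 3 and WT was small. Tgtp2, Igtp and Gbp6 did not overlap only by small margins. Their lowest Δβ values, in Δβ 3, were 4.27, 201 and 18.1, and their highest WT values, in WT 3, were 4.06, 197 and 13.2. Gbp7, Gbp8, Gbp9 and 9930111J21Rik1 overlapped between the groups. The GBP genes form dense clusters of similar copies on chromosomes 3 and 5, so reads may be shared between neighbours.

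Genes of MHC class I antigen presentation were mostly higher as well. Of 23 tested members 22 were on the higher side, 11 without overlap (47.8% beside 7.89% of all genes), and DESeq2 called 10, beside 1.05% of all genes. The median log2 difference was 0.77. Nlrc5, the transactivator of MHC class I genes, differed most, with 51.3, 42.4 and 109 in WT and 1287, 1299 and 235 in Δβ (3.54 ± 0.73, limma adjusted p = 0.277, DESeq2 adjusted p = 2.27e-06). Tap1, a subunit of the peptide transporter, had 1039, 975 and 1333 in WT and 4089.9, 4341 and 1685 in Δβ. Psmb8, an immunoproteasome subunit, had 2094, 1963 and 2144 in WT and 3939, 4961 and 2738 in Δβ. Neither of them overlapped.

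Among the heavy chains, H2-K1 had 4063, 3361 and 5699 in WT and 13686, 14946 and 6124 in Δβ, without overlap. H2-D1 had 6572, 4220.2 and 3441 in WT and 7108, 6317 and 3659.7 in Δβ, and the groups overlapped, as they did for the light chain B2m with 9179.8, 7516 and 6476 in WT and 17496, 15385 and 8161 in Δβ. The nonclassical gene H2-Q4 had 107, 150.5 and 299 in WT and 1019, 1152 and 373 in Δβ. Tapbpl, a peptide editor, and Psme2, a proteasome activator, had log2 differences of 0.80 and 0.88. MHC class II genes gave another picture: 4 of 10 tested members were on the higher side, and the median was -0.23. H2-DMa and H2-Oa were higher without overlap (20% beside 7.89% of all genes).

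**Figure D3:**
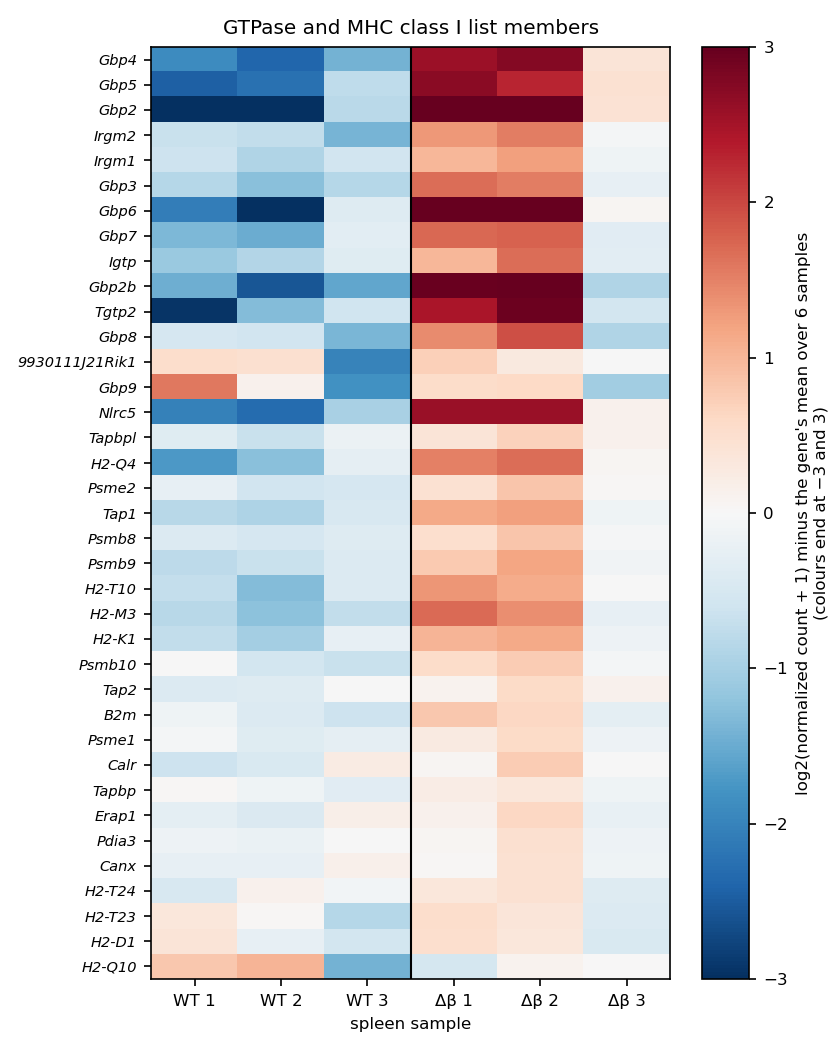
Heat map of the tested members of the GTPase list (from the top) and of the MHC class I list (below, from Nlrc5), each ordered by p, in the 6 SP samples. Colour gives log2(normalized count + 1) minus the mean of the gene over the samples. Δβ 1 and Δβ 2 are red for most members, whereas Δβ 3 lies near the middle.

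Averaged over the 14 GTPase genes, Δβ 1 and Δβ 2 lay 1.91 and 2.07 above the mean of the 6 samples on the log2 scale, Δβ 3 lay 0.23 below it (-0.23), and the WT samples lay at -1.21, -1.52 and -1.02. Without Δβ 3, 12 of the 14 GTPase genes and 18 of the 23 MHC class I genes were higher without overlap, beside 11.6% of all genes. Δβ 3 also differed in sex-linked genes, with 24820 normalized counts of Xist and at most 1.07 of the Y-linked genes Ddx3y, Eif2s3y and Kdm5d, whereas the other 5 samples expressed all 3 of these Y-linked genes. Markers of T and NK cells summed to 52.4, 44.5 and 55.8 in WT and to 282, 56.0 and 111 in Δβ, so that all Δβ samples were higher, Δβ 2 only just. Of the 5 that passed the filter on low values, Klrk1 alone was higher without overlap, beside 7.89% of all genes. The part of these differences in the values of the interferon genes was not tested.

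Interferon-induced antiviral genes, a list not split by type of interferon, differed less. Of 64 tested genes 42 were on the higher side. Without overlap, 11 were higher (17.2% beside 7.89% of all genes) and 2 lower (3.1% beside 9.43%). DESeq2 called 4, all higher, beside 1.05% of all genes. The median was 0.30, and 0.15 without WT 3. Lgals3bp, a secreted glycoprotein, had 77.5, 67.8 and 62.9 in WT and 337, 429 and 152 in Δβ (2.0 ± 0.39), and Oasl2, an oligoadenylate synthetase relative, had 35.3, 21.2 and 12.2 in WT and 95.3, 156 and 68.3 in Δβ (2.21 ± 0.48). Neither passed limma, with adjusted p of 0.245 and 0.319. Trim21, Oasl1, Rtp4 and Bst2 also did not overlap, with log2 differences of 0.70, 1.39, 2.80 and 0.79.

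Several classical members of the same list were not among the higher genes. Ifit1, which binds viral RNA, had 12.5, 7.42 and 11.2 in WT and 10.9, 12.3 and 11.7 in Δβ. Mx1, an antiviral GTPase, had 383, 189.7 and 109 in WT and 166, 123 and 143 in Δβ. Rsad2, the antiviral enzyme viperin, was lower without overlap, with 28.5, 24.4 and 17.3 in WT and 13.2, 15.7 and 11.7 in Δβ (-0.73 ± 0.36, limma adjusted p = 0.483). In the ISG15 pathway, 2 of 6 tested genes were higher without overlap (33.3% beside 7.89% of all genes), and the median was 0.56. Beside Ube2l6 this was the activating enzyme Uba7, with 1049.6, 1120.2 and 1128 in WT and 1439, 1458 and 1133 in Δβ. Its margin between Δβ 3 and WT 3 was small (limma adjusted p = 0.473). Isg15 itself had 46.7, 32.9 and 16.2 in WT and 45.0, 80.7 and 28.8 in Δβ, with overlap.

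Among 30 tested STAT, IRF and SOCS genes, 2 were higher and 2 lower without overlap, close to the background of all genes. The median was -0.03, and -0.27 without WT 3. Stat2, a subunit of the factor that binds ISREs, had 786, 886 and 654 in WT and 1128, 949.9 and 888 in Δβ, without overlap, and the log2 difference was 0.35 ± 0.16 (limma adjusted p = 0.471). Irf1, an interferon-induced transcription factor, had 1223, 982 and 586 in WT and 2396, 2145 and 1034 in Δβ, which overlapped. Irf7 and Irf9 overlapped as well, with log2 differences of 0.33 and 0.52.

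Socs3, the feedback inhibitor that STAT3 induces, lay on the other side. It had 1442, 321 and 175 in WT and 83.7, 66.1 and 52.3 in Δβ. The groups did not overlap although the WT samples spanned a wide range, and the log2 difference was -2.69 ± 0.74 (limma adjusted p = 0.379, DESeq2 adjusted p = 7.60e-04). Receptors and Janus kinases of the interferon and IL-6 families were mostly a little lower, 14 of 20, with a median of -0.23, and -0.57 without WT 3. Ifngr1, a chain of the IFN-γ receptor, had 9116, 5589.6 and 6316 in WT and 5070.3, 4298 and 4571 in Δβ, and Jak1 had 4817, 4138 and 3234 in WT and 3211, 2800.4 and 2937 in Δβ, both without overlap. Csf3r, the G-CSF receptor, had 1499.8, 2306 and 2135 in WT and 1509.8, 1246 and 1073 in Δβ, with Δβ 1 just above WT 1.

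The lowest median of all lists belonged to immediate early genes, which cells transcribe within minutes of a stimulus without new protein synthesis. All 38 tested members, among them AP-1 subunits, EGR factors, phosphatases and RNA-decay factors, were on the lower side in Δβ. Of these, 20 did not overlap (52.6% beside 9.43% of all genes) and DESeq2 called 16, beside 1.91% of all genes. Their median log2 difference was -1.63, and -1.84 without WT 3. The number without overlap was 31 without WT 3, against 30.4% of all genes, and 21 without Δβ 3, against 13%.

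Dusp1, the phosphatase that switches off MAP kinases, had 17454, 12201 and 5558 in WT and 1636, 2592 and 1328 in Δβ (-2.57 ± 0.45, limma adjusted p = 0.238, DESeq2 adjusted p = 2.22e-06). Zfp36, which promotes decay of Tnf mRNA, had 12466, 11638 and 8779 in WT and 2988, 5098 and 2239.8 in Δβ. Junb had 5267, 3993 and 3291 in WT and 1186, 1964 and 865 in Δβ. In each case the lowest WT sample exceeded the highest Δβ sample. Btg2, an antiproliferative gene, and Ier2 had log2 differences of -1.63 and -1.05. The textbook members varied more: Fos had 17443, 16226 and 13632 in WT and 4363, 12079 and 1988 in Δβ, without overlap, whereas Jun and Egr1 overlapped, with Δβ 2 high in both, Egr1 with 1508, 1409 and 1279.7 in WT and 96.1, 1685 and 269 in Δβ. Nr4a1, a nuclear receptor, had 10522, 4801 and 507 in WT and 430.1, 478 and 557 in Δβ, so that WT 3 lay among the Δβ samples.

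Promoters were matched for 31 of the 38 genes. The palindromic cAMP response element TGACGTCA, a site of CREB and ATF factors, was in 4 of the 31 (12.9% beside 3.68% of tested genes), and a form of the serum response element core, CC, any base, TAT, any 2 bases and GG on either strand, also in 4 (12.9% beside 1.65%). The windows of 2 genes with the cAMP response element follow, since both genes were among those with the smallest p of the list.
Dusp1, chr17:26508593-26508630, minus strand: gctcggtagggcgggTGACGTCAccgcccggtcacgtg
Btg2, chr1:134079299-134079336, minus strand: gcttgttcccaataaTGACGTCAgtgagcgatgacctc
Maff and Ppp1r15a carried the same letters. These are again matches of letters only.

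**Figure D4:**
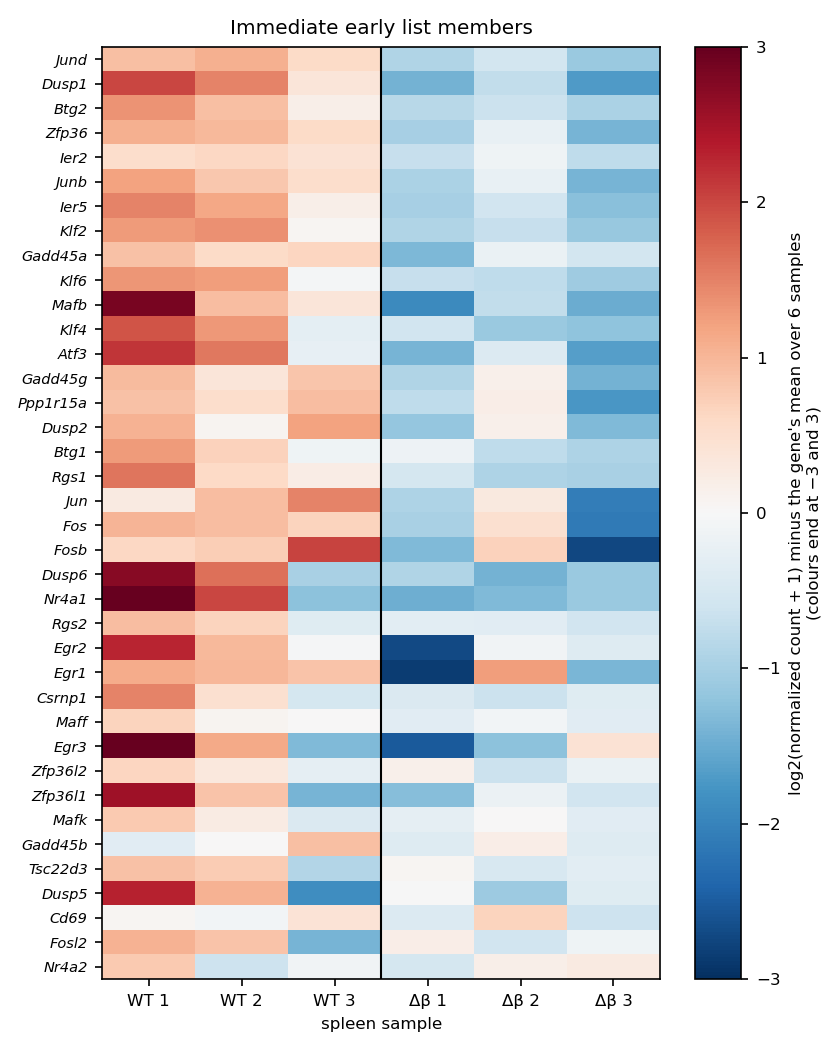
Heat map of the 38 tested immediate early genes, ordered by p from the top, in the 6 SP samples. Colour gives log2(normalized count + 1) minus the mean of the gene. WT 1 and WT 2 are red throughout most of the list, and WT 3 is red for Jun and Fosb and blue for Nr4a1 and Dusp5.

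Feedback inhibitors of NF-kB were lower too. All 25 tested genes of the NF-kB list were on the lower side, 8 without overlap (32% beside 9.43% of all genes). DESeq2 called 6, beside 1.91% of all genes. The median was -0.39, and -0.82 without WT 3. Nfkbia, the inhibitor IκBα, had 2792, 2057 and 2332 in WT and 1398, 1497 and 1242 in Δβ (-0.79 ± 0.15, limma adjusted p = 0.238). Nfkbiz, an inducible nuclear IκB protein, had 2147, 1170.0 and 381 in WT and 187, 226 and 187 in Δβ. Tnfaip3, the deubiquitinase A20, had 936, 583 and 347 in WT and 202, 263 and 271 in Δβ. All 5 subunits overlapped between the groups, with log2 differences of -0.04 for Nfkb1, -0.12 for Rel, -0.29 for Rela, -0.44 for Nfkb2 and -0.97 for Relb.

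In a list of cytokines and growth factors, Tnf included, 11 of 16 were on the lower side. Labelled by its TNF and interleukin-1 family members, the list also holds Osm, Il27, Il12a, Lif, Tgfb1, Vegfa, Csf1 and Hbegf. Of the 16, 2 were lower without overlap (12.5% beside 9.43% of all genes) and 1 higher (6.25% beside 7.89%), shares near the background. The median was -0.71. Il1b had 1077, 539 and 67.0 in WT and 81.4, 151 and 87.5 in Δβ, and WT 3 lay below all Δβ samples. Tnfsf10, the death ligand TRAIL and an interferon-induced gene, was the member higher without overlap, with 4.56, 3.18 and 7.10 in WT and 49.6, 40.3 and 11.7 in Δβ (2.38 ± 0.65). Of 10 chemokines, 8 were on the lower side, with a median of -1.32. Ccl2, Ccl4 and Cxcl16 were lower without overlap (30% beside 9.43% of all genes). Ccl2, which attracts monocytes, had 279, 114 and 76.1 in WT and 19.4, 53.8 and 14.9 in Δβ. Cxcl9, induced by IFN-γ, had 2.28, 0 and 13.2 in WT and 15.5, 14.6 and 20.3 in Δβ, higher without overlap.

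Genes of myeloid maturation were mostly lower in Δβ, and WT 3 lay with the Δβ samples in their average, at -0.70 beside -0.31, -0.48 and -0.54 and beside 1.29 and 0.73 in WT 1 and WT 2. Of 50 surface receptors and integrins, 44 were on the lower side, 9 without overlap (18% beside 9.43% of all genes). DESeq2 called 9, beside 1.91% of all genes, and the median was -0.90. Without WT 3 the median was -1.41 and 38 were lower without overlap, where 30.4% of all genes were. Itgam, which encodes CD11b, had 26293, 21981 and 10941 in WT and 8530.1, 7855 and 10473 in Δβ (-1.06 ± 0.34, limma adjusted p = 0.414). Trem3, an activating receptor, had 1801, 2109 and 2173 in WT and 1024, 992 and 672 in Δβ, and here WT 3 was the highest sample. Clec4e, a receptor for mycobacterial glycolipids, had 1803, 1252 and 405 in WT and 208, 254 and 231 in Δβ.

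Late granule and S100 genes behaved alike: 41 of 43 were on the lower side, and Chit1 and Chil1 were the 2 exceptions. In all, 12 were lower without overlap (27.9% beside 9.43% of all genes), and DESeq2 called 9 of the lower genes, beside 1.91% of all genes. The median was -0.91, and -1.44 without WT 3. S100a8, a subunit of calprotectin, had 40977, 70767 and 35913 in WT and 23059, 19009 and 21251 in Δβ (-1.16 ± 0.29, limma adjusted p = 0.377). Cd177, a neutrophil surface protein, had 5168, 10412 and 4993 in WT and 2446, 1833 and 1346 in Δβ. The granule genes Ltf and Ngp overlapped, Ltf with 10805, 16962 and 2345 in WT and 2581, 4550.1 and 2012 in Δβ, where WT 3 lay below Δβ 1 and Δβ 2. The summed neutrophil markers were lower in every Δβ sample than in any WT sample. On their own, 2 of 12 markers were lower without overlap, beside 9.43% of all genes. Red pulp macrophage markers summed to 9597, 7216 and 4171 in WT and to 4812, 5308 and 3807 in Δβ. Among the 7 that passed the filter on low values 2 were lower without overlap, beside 9.43% of all genes. These were the iron exporter Slc40a1 and Hmox1, the heme-degrading enzyme, which had 3925, 1402 and 314 in WT and 299.9, 167 and 227 in Δβ. The others overlapped, Vcam1 with 699, 1291 and 946 in WT and 1157, 2409 and 760 in Δβ. The part of these cell types in these results was not tested, and in bulk RNA fewer cells of a type and less RNA per cell cannot be told apart.

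The list of primary granule genes, most of which mark earlier promyelocytic stages, was highest in WT 3 on average, at 1.23 above the mean of the 6 samples. It also holds Plac8 and Calr, and Calr is in the MHC class I list too. Mpo had 5947, 5256 and 40587 in WT and 53209.5, 25775 and 30744 in Δβ, and Elane, neutrophil elastase, had 12215, 14208 and 72724 in WT and 37376, 24521 and 16851 in Δβ. None of the 10 tested members separated the groups with all samples. Without WT 3, 8 were higher without overlap, Calr and Plac8 included, where 24.9% of all genes were. The median was 0.34 with WT 3 and 0.89 without it. Myb, a progenitor factor, had 2842, 5439 and 11399.5 in WT and 7943, 7342 and 8117 in Δβ. Among 39 stem, progenitor and MLL-AF9 target genes the median was 0.09. Without overlap, 3 were higher (7.69% beside 7.89% of all genes) and 5 lower (12.8% beside 9.43%), shares near the background. Hoxa9 and Meis1 overlapped, each with a log2 difference of 0.48. Ly6a, which encodes Sca-1 and responds to interferon, had 5.70, 9.54 and 15.2 in WT and 45.7, 48.2 and 21.4 in Δβ, and Id2, an inhibitor of differentiation factors, had 4269, 2141 and 724 in WT and 443, 439 and 585 in Δβ.

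Growth-related genes were slightly higher as groups. Of 88 genes of the Myc network and nucleolar ribosome biogenesis, 78 were on the higher side. Without overlap, 17 were higher (19.3% beside 7.89% of all genes) and 1 lower. Their median was 0.37, and 0.54 without WT 3. Urb1, a nucleolar assembly factor, had 284, 235 and 297 in WT and 436, 434 and 372 in Δβ, and Fbl, the rRNA methyltransferase fibrillarin, had 121, 85.8 and 144 in WT and 176, 262 and 194 in Δβ. Myc itself overlapped, with 782, 805 and 1538 in WT and 886, 1546 and 1440.2 in Δβ. Of 59 DNA replication genes, 58 were on the higher side, 11 without overlap (18.6% beside 7.89% of all genes). Their median was 0.36, and 0.58 without WT 3. Dnmt1, the maintenance DNA methyltransferase, had 4013, 5365 and 5533 in WT and 7472, 7103 and 7209 in Δβ. Mitosis genes had a median of 0.18, and 0.37 without WT 3, with 2 of 60 higher without overlap (3.33% beside 7.89% of all genes). WT 1 was the lowest sample in the average of the replication and of the mitosis genes, at -0.57 and -0.44 from the mean.

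Metabolic lists lay closer to 0. The median was 0.07 for 74 respiratory chain subunits, of which 7 were higher without overlap (9.46% beside 7.89% of all genes, a share near the background), and Atp5e, a subunit of ATP synthase, led with 1242, 1056 and 982 in WT and 1540.0, 1726 and 1577 in Δβ. Glycolysis and hypoxia targets had a median of -0.23, with 9 of 48 lower without overlap (18.8% beside 9.43% of all genes). Among them was Pfkfb4, a regulator of glycolytic flux, with 1043, 971 and 676 in WT and 501, 531 and 593 in Δβ. Cathepsins and other lysosomal genes had a median of -0.30, against which Ctse, an aspartic protease of endosomes, stood out with 232, 173 and 52.8 in WT and 1406, 1031 and 2056 in Δβ (3.47 ± 0.57, limma adjusted p = 0.238, DESeq2 adjusted p = 1.32e-07). Its limma adjusted p was 0.0495 in the fit of 12 samples.

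**Figure D5:**
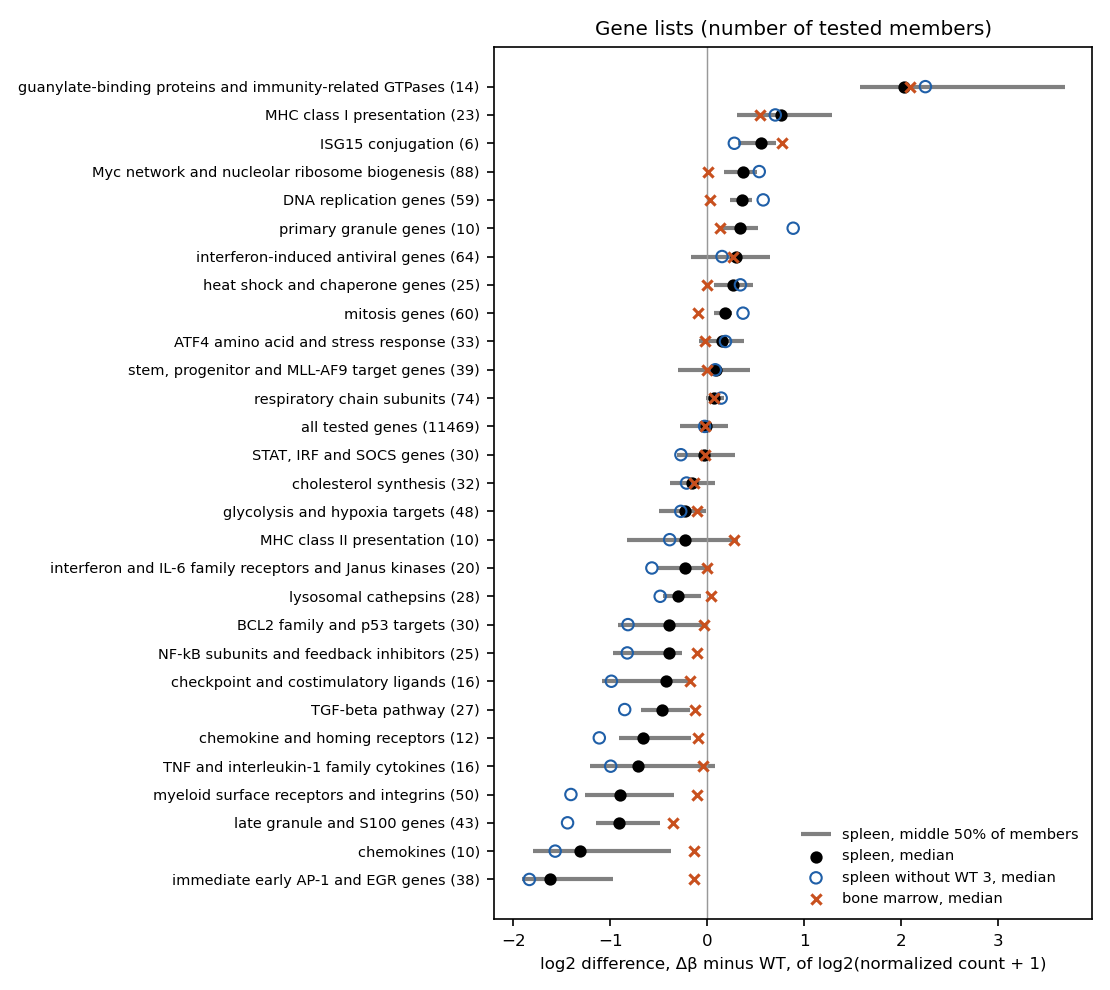
Median log2 difference, Δβ minus WT (horizontal), of each gene list in SP (black, with a grey bar for the middle 50% of members), in SP without WT 3 (blue circles) and in BM (orange crosses). The GTPase list is highest at 2.03 and the immediate early list lowest at -1.63 in SP, where the BM medians are 2.10 and -0.13.

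The same contrast in BM sets the 2 organs side by side. Deviations of same-numbered SP and BM samples from their group means correlated across genes by 0.606 to 0.661 in Δβ and by -0.238 to -0.005 in WT, so the Δβ samples of both organs were alike by number and BM is no independent repeat of SP. Genotype differences in SP minus those in BM were tested as an interaction over all 12 samples. Limma called 0% of the genes, with 371 at an unadjusted p under 0.05, edgeR called 0, with 434 at an unadjusted p under 0.05, and DESeq2 called 5, so limma showed a difference between the organs for none of the genes. Cwc22 had 412, 527 and 422 in WT BM and 6313, 6463 and 6717 in Δβ BM, and Ube2l6 had 43.7, 13.5 and 44.3 in WT BM and 544, 398 and 268 in Δβ BM. Both genes were thus higher without overlap in BM too. The GTPase list had a median of 2.10 in BM, and Gbp2 had 10.9, 12.4 and 15.1 in WT BM and 1301, 1349 and 28.0 in Δβ BM, with Δβ 3 again the lowest of the Δβ samples. MHC class I genes had a median of 0.54.

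Immediate early genes had a median of -0.13 in BM, beside -1.63 in SP. Of these genes, 14 of 38 had an unadjusted interaction p under 0.05 in limma, beside 371 of all 11469 genes, and none passed after adjustment. Dusp1 had 1141, 1236 and 7623 in WT BM and 5139, 929 and 3438 in Δβ BM, which overlapped. Its interaction was -2.77 on the log2 scale (limma adjusted p = 0.926). Tnf had 373, 576 and 635 in WT BM and 409, 224 and 292 in Δβ BM, an interaction of -1.50 (limma adjusted p = 0.926), and Socs3 had 32.7, 24.8 and 150.1 in WT BM and 137, 71.3 and 79.8 in Δβ BM, an interaction of -3.56 (limma adjusted p = 0.926). Mdn1 and Msl3l2 had BM differences of -0.04 and 0.23, beside 0.88 and 2.27 in SP. Chit1, Chil1 and Ctse were higher in BM too, by 5.01, 3.41 and 4.02, and Rnaset2b had 55.6, 50.7 and 45.3 in WT BM and 0, 0 and 2.07 in Δβ BM.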

How the data were processed

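Poly-A libraries of Venus-sorted MLL-AF9 blasts were sequenced by the authors, and the notes of the submitters name FastQC, STAR, featureCounts and DESeq2 and the mouse build GRCm38 (mm10), with no versions given in the sources used here. The deposited signal gives, for 24454 genes, read counts scaled by a size factor. Dividing by the worth of 1 read returned whole numbers (100% of values, within 0.001 reads), and these reads entered edgeR and DESeq2. Over all 12 samples 9001051 to 13859727 reads fell on genes. The floor of 3 reads covers counting error only. In the same table, 6 columns that no label describes were not used.

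Samples were grouped by organ and genotype as labelled. Genes averaging 10 or more in the SP samples were tested with limma 3.58.1 (lmFit, eBayes with trend, R 4.3.3) on log2(normalized count + 1), which understates changes of low genes, with Benjamini-Hochberg adjustment over 11469 genes. SE is the moderated standard error of limma. The alternatives were pseudocounts of 0.25 and 4, other filters and scalings, DESeq2 1.42.0 and edgeR 4.0.16 (quasi-likelihood) on reads, a fit of 12 samples, a replicate block, sample weights and each sample left out. DESeq2 gave no adjusted p for 9 genes. Procedures were tested on simulated data.

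Named genes are, in each direction, the 12 with the smallest p whose groups did not overlap, up to 5 members of each list by p, and Stat3. Others (such as Ifit1, Fos, Myc and H2-D1) were chosen after their values were seen, as familiar members of their list. The genes studied and the lists were chosen with earlier results of these data known. Positions are those of RefSeq on GRCm38.p6 (11457 genes matched by Entrez gene). Of the list of mitochondrially encoded genes none was in the table. Some items are not reported here.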

Additional observations from a re-analysis of the deposited data

Results flagged for a closer look

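Anln, which encodes a scaffold protein of the cleavage furrow, was the one named gene whose groups were apart in opposite directions in the organs. In SP it had 938, 1336 and 1232 normalized counts in WT and 1338, 1438 and 1446 in Δβ, and it had 1553, 1774 and 1661 in WT BM and 1394, 1368 and 1425 in Δβ BM. The difference between the organs was 0.53 on the log2 scale (limma adjusted p = 0.926), so it did not pass the test over all genes.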

How the results depend on the processing

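With all 6 SP samples limma called 2 genes, and the count stayed at 2 with pseudocounts of 0.25 and 4, no filter, a minimum mean of 50, TMM rescaling, quantile normalization, an added fold threshold, and edgeR. It was 5 without the trend, 12 in the fit of 12 samples, 339 with DESeq2 and 4857 with sample weights, which ranged from 0.153 for WT 3 to 25.4 for WT 2. With 1 sample left out it was 1 to 1497, the highest without WT 3. Genes whose groups did not overlap numbered 1986, 1964 with TMM rescaling and 1692 with a minimum mean of 50. The interaction between genotype and organ had 0 calls in limma and edgeR and 5, all negative, in DESeq2, and 0 with any of the 12 samples left out. Of 3097 alternative values of the named genes, 2761 kept direction and side of the threshold, 325 newly passed it, 7 lost it and 4 turned sign. These 4 were Prtn3 (0.46) without WT 1 (-0.011) and Nkg7 (0.53) with edgeR (-1.06), DESeq2 (-1.05) and without WT 1 (-0.80). With single samples left out Prtn3 ranged from -0.011 to 1.18 and Nkg7 from -0.80 to 2.05. The cause was not tested.

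Replicate numbers gave no pairing between genotypes in SP: deviations of same-numbered WT and Δβ samples from their group means correlated across genes by 0.202, -0.174 and -0.018. Between organs, same-numbered samples correlated by 0.661, 0.606 and 0.632 in Δβ and by -0.005, -0.044 and -0.238 in WT. With the replicate block limma called 1 gene in SP. The interaction stayed at 0 with that block and with same-numbered organs taken as 1 source in Δβ or in both genotypes, with 426, 464 and 425 genes at an unadjusted p under 0.05. These 2 fits by source were added after seeing the data. Counts of list members without WT 3 or without Δβ 3 were added after seeing the data. Depth limits the genes averaging under 10 normalized counts, which were not tested.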

Other observations

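Apoptosis regulators and p53 targets were mostly lower in Δβ spleen blasts, 23 of 30, with a median of -0.39, and -0.82 without WT 3. Of the 30, 5 were lower without overlap (16.7% beside 9.43% of all genes). The 2 higher without overlap (6.67% beside 7.89%) were near the background. Pmaip1, the BH3-only protein NOXA, had 2135, 1963 and 1416 in WT and 481, 1000.3 and 737 in Δβ (-1.35 ± 0.29, limma adjusted p = 0.321), and the kinases Plk2 and Plk3 had log2 differences of -2.56 and -2.07. Mcl1, a survival factor of myeloid cells, had 14250.0, 10311 and 5636 in WT and 5655, 4789 and 4543 in Δβ, which overlapped by WT 3. Of 16 checkpoint and costimulatory ligands 14 were on the lower side. Vsir, the checkpoint ligand VISTA, had 10179, 9447 and 5088 in WT and 4573, 3373 and 4443 in Δβ, without overlap, and Cd47 had 5592, 5587 and 5899 in WT and 5376, 5305 and 4834 in Δβ. The inhibitory receptor Havcr2 had 1084, 259 and 37.5 in WT and 69.0, 50.4 and 44.8 in Δβ, where WT 3 lay below all Δβ samples.

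Of 27 TGF-β pathway genes 23 were on the lower side (median -0.47, and -0.85 without WT 3). Id3 had 132, 38.2 and 38.6 in WT and 15.5, 14.6 and 8.54 in Δβ. Cholesterol synthesis genes had a median of -0.15, with 4 of 32 lower without overlap (12.5% beside 9.43% of all genes, near the background). These included the regulator Srebf2 with 2003, 2014 and 1501 in WT and 1279, 1099 and 1396 in Δβ. Chaperones had a median of 0.27, and Hspa1b, an inducible HSP70, had 104, 336 and 214 in WT and 779.7, 3220.4 and 287 in Δβ, with Δβ 2 far above the rest. The ATF4 stress response list had a median of 0.15, and Slc7a11, the cystine transporter, differed by -2.24 ± 0.90 with overlap. Of 12 chemokine and homing receptors 11 were on the lower side, among them Cx3cr1 with 5801, 2517 and 1053 in WT and 979.6, 417 and 927 in Δβ.

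Sex-linked genes differed between samples of 1 genotype. Xist had 394, 12.7 and 45.7 normalized counts in WT SP, 891, 1920.0 and 24820.2 in Δβ SP, 25479.7, 14503 and 27.2 in WT BM and 3849.8, 949.7 and 10277 in Δβ BM. The Y-linked Ddx3y had 1989.8, 1547 and 1060.5, 1214, 1167 and 1.07, 0.992, 123 and 1291 in WT BM and 1179.6, 1154 and 14.5 in Δβ BM in the same order. WT 1 and WT 2 had Y-linked transcripts in SP, whereas in BM the samples with these numbers were high in Xist and low in Ddx3y. For the other 4 numbers the organs were alike in Ddx3y, high in WT 3, Δβ 1 and Δβ 2 and low in Δβ 3.

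Platelet markers summed to 1586 in WT 1 and to 104 to 349.7 elsewhere, with Vwf as the main gene in WT 1, and B cell markers to 443 to 949.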
